A study of Mus musculus with 6 samples.

Results

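Glucose reaches lactate through a chain of enzymes, several of which exist as a muscle isoform and a ubiquitous isoform, and some of these genes are also targets of the response to low oxygen. The 37 genes described here were chosen by name, with no measured value in the rule, but with earlier results of these data known. They fall into 13 ubiquitous or other-tissue isoforms, 8 muscle-enriched isoforms, 7 enzymes with a single or shared gene, and 9 regulators or targets of the hypoxia response. Aldoa and Ldha are counted among the 7, although their counterparts Aldoc and Ldhb stand among the ubiquitous or other-tissue isoforms. All 37 were found among the 27366 features of the deposited table, and all 37 were among the 20344 features tested.

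Mouse satellite cells, which are muscle stem cells, were profiled by RNA sequencing at day 4 of culture in a growth medium of serum and basic FGF. The genotype label was control in 3 libraries and Islr knockout in the other 3, and both groups had the same growth culture with no further allele or agent named. Islr is named for its immunoglobulin and leucine-rich repeat sequences, and the design text says that flow cytometry separated cells with Islr from cells without it. The sources used here do not give how Islr was removed, nor the strain or age of the mice. The labels leave unsaid whether libraries of 1 group come from different mice or dishes, and each p-value therefore measures only the spread between libraries, which may be technical.

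In glycolysis, glucose enters through facilitative transporters, is trapped by hexokinase, committed by phosphofructokinase, split by aldolase and oxidised to pyruvate. Pyruvate is then reduced to lactate by lactate dehydrogenase, exported through monocarboxylate transporters, or passed to mitochondria unless pyruvate dehydrogenase kinases block that step. When myoblasts stop dividing and fuse, muscle isoforms such as Pgam2, Eno3 and Pfkm are switched on beside the ubiquitous ones. In low oxygen, the factors encoded by Hif1a and Epas1 escape the prolyl hydroxylases encoded by Egln1 and Egln3 and raise transcription of many glycolytic genes.

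Each library held between 16456917 and 20531276 reads. Values below are scaled reads, that is reads divided by 1 size factor per library, unless FPKM (fragments per kb of transcript, scaled to library depth) is named, and 6 values in a sentence follow the order control 1, 2, 3 and Islr knockout 1, 2, 3. Islr itself stood at 181.1, 12.8, 1579, 257, 7.38 and 10.9, so the library labelled Islr knockout 1 held more Islr than the libraries labelled control 1 and control 2. The sources used here do not say which part of Islr was deleted, so reads over the whole gene check nothing about the knockout itself. Of 10 satellite cell and myoblast genes, Pax7 stood between 1233 and 2729 and Myod1 between 18888 and 33818. Msc and Chrdl2 of the same list were near the floor, at most 17.1 and 14.4, and Chrdl2 was 0 in the library labelled Islr knockout 3. Myog, the myogenic regulator of terminal differentiation, ran from 417.2 to 43370, and 26 myogenic differentiation genes together took 3.75, 0.184, 2.21, 3.93, 0.259 and 0.626% of reads. In these bulk libraries fewer differentiated cells and less RNA per cell cannot be told apart. Members as a whole took 1.53% to 2.07% of reads.

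Enzymes of glycolysis itself were the most abundant members. Pkm, the pyruvate kinase gene, had the highest mean level over the 6 libraries, 1482 FPKM, and ranged from 1189 to 1656 FPKM. Eno1 followed at 1389 FPKM, Ldha at 984 FPKM, Aldoa at 964 FPKM and Gapdh at 914 FPKM, and the FPKM ranges of these genes over the libraries overlapped one another. At the other end stood Aldoc, the brain aldolase, at 0.233 FPKM, Car9 at 0.375 FPKM and Slc2a3 at 0.998 FPKM. Between the highest and the lowest library, Egln1 differed 1.17-fold and Pgam2 76.9-fold, the smallest and the largest ratios of scaled reads among the 37 members.

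**Figure D1:**
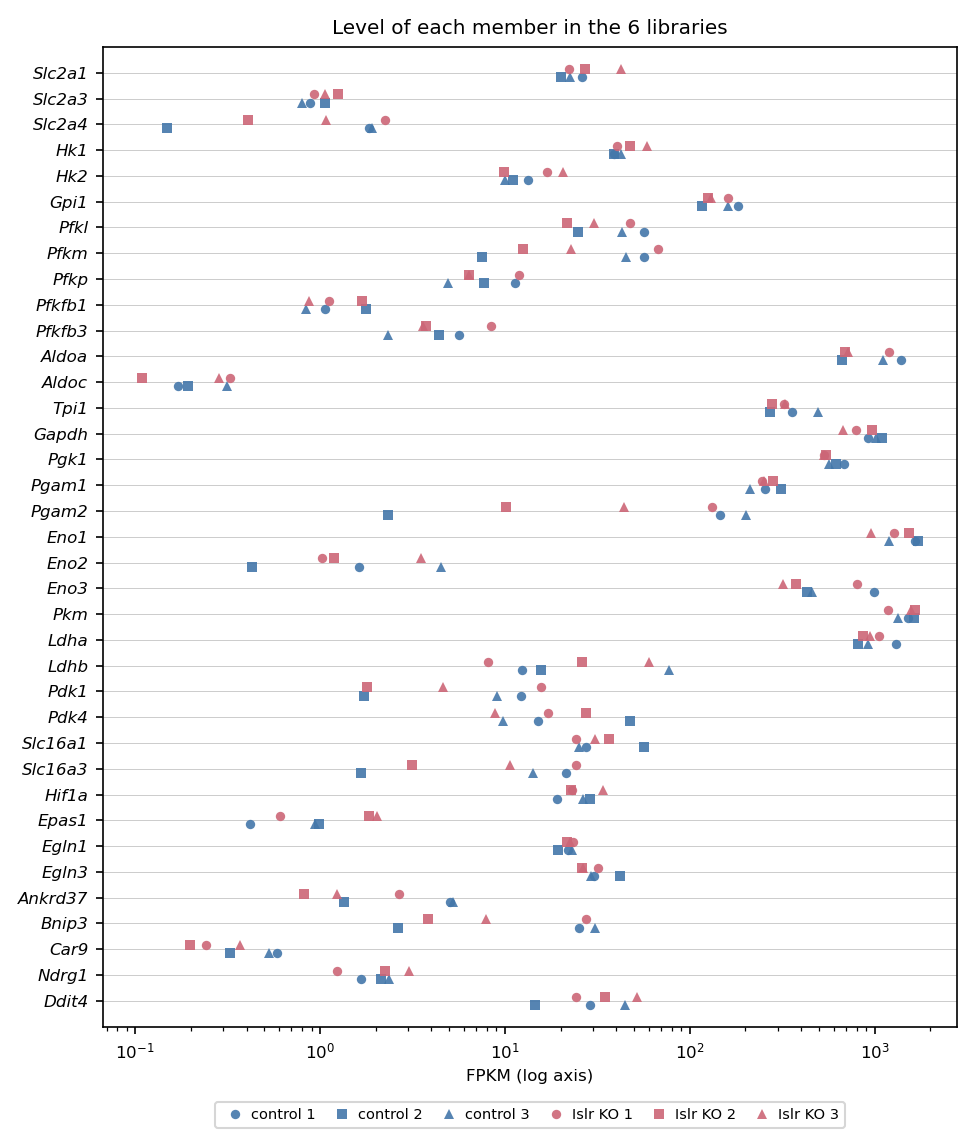
Level of each of the 37 members, in FPKM on a log axis, as 1 point per library; blue points are control libraries and red points Islr knockout libraries, and the point shape gives the replicate number. Egln1, Hk1 and Pkm sit in tight clusters, whereas Pgam2, Slc2a4, Slc16a3, Bnip3 and Eno2 spread over 10-fold or more, with both number 2 libraries lowest in all of these except Eno2.

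Promoter sequence is shown for the muscle isoform with the widest range, Pgam2, for the lactate exporter that differed most between replicate numbers, Slc16a3, and for 2 HIF targets, Bnip3 and Ankrd37. Each is the stretch of 250 bases before the RefSeq transcription start on GRCm38.p6, written 5′ to 3′ on the gene's strand. In Pgam2, capitals mark an E-box of the form CAGCTG, bound by MyoD-family factors. Only this form is counted below as the E-box, and other E-box forms, such as the CAGGTG just before it, were not counted. In the other 3, capitals mark the HIF response element cores ACGTG and GCGTG on either strand (CACGT and CACGC read on the opposite strand), with overlapping matches counted each.
Pgam2, chr11:5803797-5804046, minus strand: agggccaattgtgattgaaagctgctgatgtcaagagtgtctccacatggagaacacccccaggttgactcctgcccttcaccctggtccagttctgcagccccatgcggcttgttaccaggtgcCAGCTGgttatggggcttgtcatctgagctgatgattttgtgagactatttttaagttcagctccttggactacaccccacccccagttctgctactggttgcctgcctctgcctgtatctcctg
Slc16a3, chr11:120948817-120949066, plus strand: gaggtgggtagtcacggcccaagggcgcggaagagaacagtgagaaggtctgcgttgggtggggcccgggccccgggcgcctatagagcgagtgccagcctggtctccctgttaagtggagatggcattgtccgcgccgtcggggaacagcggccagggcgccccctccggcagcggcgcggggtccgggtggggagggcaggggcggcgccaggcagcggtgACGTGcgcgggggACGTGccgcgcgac
Bnip3, chr7:138909507-138909756, minus strand: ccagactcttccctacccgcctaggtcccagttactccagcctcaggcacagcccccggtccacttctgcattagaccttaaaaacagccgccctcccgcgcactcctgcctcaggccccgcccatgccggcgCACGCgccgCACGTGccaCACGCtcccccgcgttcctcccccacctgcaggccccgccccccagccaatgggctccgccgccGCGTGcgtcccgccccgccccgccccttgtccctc
Ankrd37, chr8:45999851-46000100, minus strand: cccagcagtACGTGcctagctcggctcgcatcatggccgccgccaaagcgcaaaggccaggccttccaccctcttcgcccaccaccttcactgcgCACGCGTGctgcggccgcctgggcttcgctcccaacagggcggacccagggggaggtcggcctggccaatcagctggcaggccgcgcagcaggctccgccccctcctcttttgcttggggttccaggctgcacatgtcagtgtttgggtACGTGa
Pgam2 held 1 match to the E-box and 0 to the cores, Slc16a3 2 matches to the cores, Bnip3 5 and Ankrd37 4. The Ankrd37 window also held 1 match to the E-box, which is left in lower case, and those of Slc16a3 and Bnip3 held 0. The E-box was found in 13.0% and a core in 38.6% of all 32851 RefSeq windows of this length. For 33 of 37 members a window was listed, 49 windows in all, of which 14.3% held the E-box and 75.5% a core. Some windows of the same gene overlap, as in Eno1, Pfkm and Aldoa, so 1 match can count in more than 1 window. By gene, 7 of the 33 members had the E-box and 29 a core in at least 1 window, whereas the shares over all RefSeq windows are by window. A match is a description of the letters and shows no binding.

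No member was called between Islr knockout and control. In the limma fit, 0 of 20344 features passed a Benjamini-Hochberg adjusted p of 0.05 (0.0%), and 0 of 37 members did. At an unadjusted p under 0.05, limma found 276 features (1.36% of those tested) and 0 members. An edgeR quasi-likelihood fit called 0 features, with 162 at an unadjusted p under 0.05, and DESeq2 called 0, with 318. The median log2 fold change of the 37 members was -0.08, beside a median of 0.03 over all features tested. Of the members 24 were lower and 13 higher in the knockout libraries, and of all features 9555 were lower and 10789 higher. Scaling libraries by their total reads gave 20 lower members, and leaving out 1 library gave 19 to 26. The muscle-enriched isoforms had a median of -0.04 and the ubiquitous or other-tissue isoforms -0.02, which turned to 0.01 and 0.02 when libraries were scaled by their total reads (median of all features 0.07). Single libraries set the muscle-enriched median, which was 0.49, -0.74 or 0.25 without control 1, 2 or 3 and -0.46, 0.57 or 0.16 without the library labelled Islr knockout 1, 2 or 3. Leaving out 1 library moved the ubiquitous or other-tissue median between -0.11 and 0.16 and that of all 37 members between -0.31 (without the library labelled Islr knockout 1) and -0.02 (without control 1). For the 7 enzymes with a single or shared gene the median was -0.26, with all 7 fitted values below 0 under each scaling, and for the hypoxia genes it was -0.05, or -0.20 to 0.05 with 1 library left out.

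The 2 groups overlapped for each of these 7 enzymes, and 6 of 7 fitted values were below 0 when control 1, control 2 or the library labelled Islr knockout 1 was left out; without control 1 the median was -0.07, -0.15 without the library labelled Islr knockout 3, and -0.32 without that labelled Islr knockout 1. Gapdh, which oxidises glyceraldehyde 3-phosphate, read 56637, 70962, 58788, 48844, 58418 and 37596. The knockout library was the lower one in each of the 3 replicate numbers, and limma gave a log2 fold change of -0.38 ± 0.28 (SE, n = 3 per group, unadjusted p = 0.2125, adjusted p = 1.0), or -0.21 without the library labelled Islr knockout 3. Iffo1, which overlaps Gapdh on the opposite strand, read 5701, 709.7, 5017, 5036, 919.8 and 1712, and the sources used here do not say how counting handled strand. Pgk1, the phosphoglycerate kinase gene, read 23305, 22178, 18138, 18297, 18326 and 16407, again lower in the knockout library of each number. Aldoa, the aldolase of muscle and most tissues, read 40330, 20150, 30210, 34865, 19776 and 18762, and here the number 1 libraries stood highest in both groups. Tpi1, encoding triosephosphate isomerase, ranged from 8210 to 13886, and Gpi1, encoding glucose-6-phosphate isomerase, from 6976 to 10952. Pkm ranged from 54311 to 77340 scaled reads and Ldha from 28780 to 44375, and neither was lower in the knockout library in all 3 numbers.

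Over all 37 members, the knockout library was lower in all 3 numbers for 9, and higher in all 3 for 3. Of all features tested, 12.1% were lower and 12.2% were higher in all 3 numbers. The 9 were Pfkl, Aldoa, Tpi1, Gapdh, Pgk1, Eno1, Eno3, Ankrd37 and Car9, and the 3 were Slc2a3, Hk1 and Epas1. These counts are in scaled reads and depend on the scaling. In number 2, Aldoa and Tpi1 differed by only -0.03 and -0.05 in log2. In FPKM the knockout library of number 2 was the higher one, at 696.3 against 665.4 for Aldoa and 278.6 against 270.7 for Tpi1. In scaled reads, groups that did not overlap were found for 1 member, Car9, and for 4.76% of all features tested. The groups of Car9 did overlap in FPKM.

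**Figure D2:**
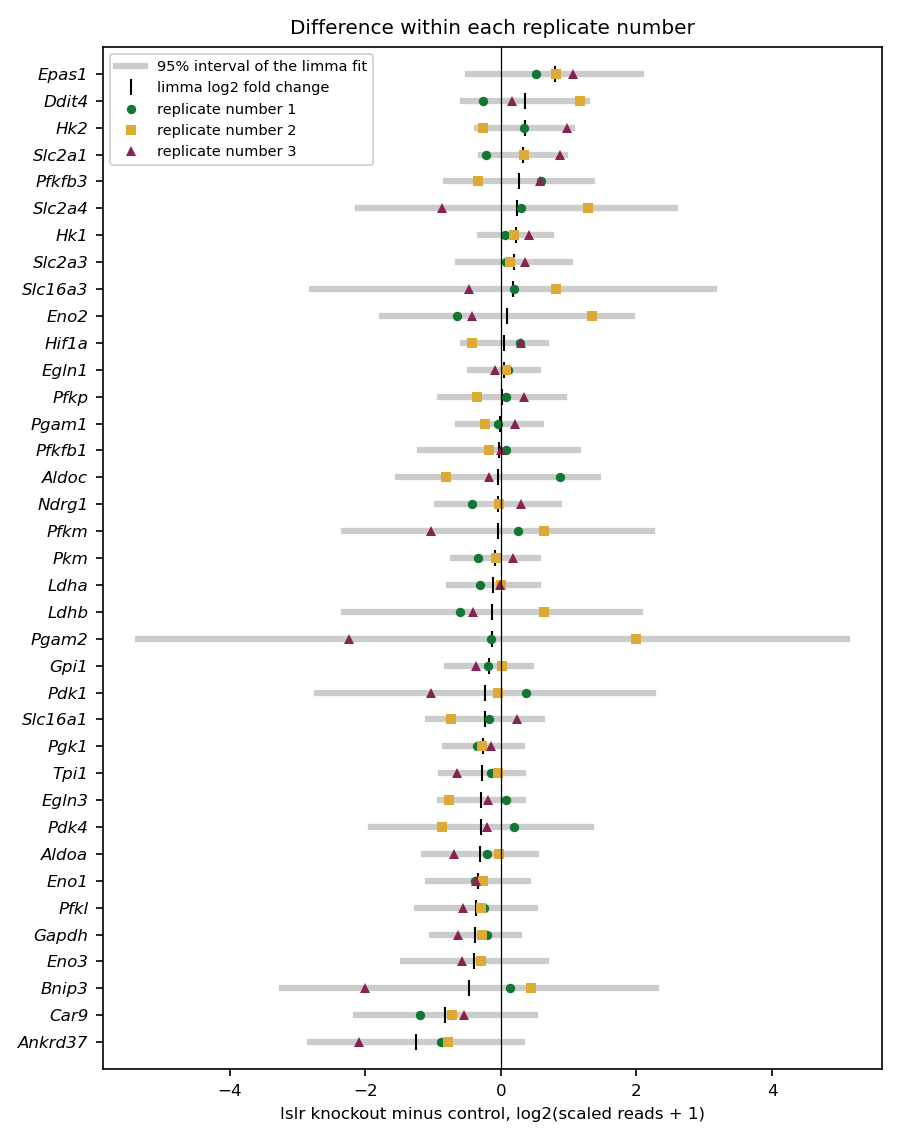
Difference between the Islr knockout and control libraries of each replicate number for the 37 members, on the log2(scaled reads + 1) scale, ordered by the limma log2 fold change; coloured points are replicate numbers, black ticks the fitted log2 fold change and grey bars its 95% interval. The 95% interval of every member spans 0, and in Pgam2 the number 2 point (1.99) and the number 3 point (-2.24) lie on opposite sides of 0.

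Glucose transport rested mainly on Slc2a1, which encodes the ubiquitous transporter GLUT1. It read 26.04, 20.1, 22.5, 22.2, 27.1 and 42.7 FPKM. The library labelled Islr knockout 3 stood above the rest and the others lay close together, and the fitted log2 fold change was 0.33 ± 0.27 (SE, n = 3 per group, limma unadjusted p = 0.2619, adjusted p = 1.0). Leaving out the library labelled Islr knockout 3 gave 0.11, and leaving out the one labelled Islr knockout 1 gave 0.50. Slc2a3, encoding the high-affinity GLUT3 of neurons, stayed between 0.795 and 1.26 FPKM. Slc2a4, encoding the insulin-responsive GLUT4 of muscle and fat, read 1.84, 0.149, 1.91, 2.25, 0.410 and 1.07 FPKM. Both number 2 libraries were lowest, and the 2 groups overlapped. As a share of the FPKM of all 3 transporters, Slc2a4 made up 6.40, 0.701, 7.56, 8.84, 1.42 and 2.40%.

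For hexokinase, Hk1, the ubiquitous form, read 39.0, 38.9, 42.7, 40.3, 47.3 and 58.8 FPKM. Hk2, the form typical of insulin-sensitive muscle, read 13.4, 11.1, 10.1, 16.9, 9.86 and 20.6 FPKM. Hk2 was highest in the library labelled Islr knockout 3 and lowest in the library labelled Islr knockout 2, so the knockout libraries bracketed all controls; its log2 fold change was 0.35 ± 0.31 (SE, n = 3 per group, limma unadjusted p = 0.2820, adjusted p = 1.0). Omitting the library labelled Islr knockout 2 gave 0.65, omitting the one labelled Islr knockout 3 gave 0.18, and omitting control 3 gave 0.22. The Hk2 share of hexokinase FPKM was 22.3% ± 3.25 in control and 24.3% ± 6.32 in knockout libraries (SD, n = 3 each).

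Phosphofructokinase catalyses the committed step and is built from the liver-type subunit Pfkl, the muscle-type subunit Pfkm and the platelet-type subunit Pfkp. Pfkm read 56.7, 7.54, 44.9, 67.2, 12.5 and 22.9 FPKM. Pfkl read 56.9, 25.0, 43.0, 47.7, 21.7 and 30.4 FPKM, and Pfkp read 11.4, 7.69, 4.90, 11.9, 6.41 and 6.42 FPKM. Pfkm thus stood close to Pfkl in control 1 and control 3, above it in the library labelled Islr knockout 1, and below it in both number 2 libraries and in the library labelled Islr knockout 3. Its share of the 3 subunits was 45.4, 18.8, 48.4, 53.0, 30.8 and 38.4%. Senp1, which overlaps Pfkm on the opposite strand, read 973, 1617, 654, 1215, 1148 and 801 scaled reads, and was not lower in the number 2 libraries. Pitrm1, which overlaps Pfkp on the opposite strand, ranged from 1932 to 3687 scaled reads and stood above Pfkp in every library. Of the bifunctional enzymes that set the activator fructose 2,6-bisphosphate, Pfkfb3 ranged from 2.32 to 8.46 FPKM and Pfkfb1, a liver and muscle form, from 0.836 to 1.78 FPKM. Apex2, on the opposite strand over Pfkfb1, read 463.3, 694.5, 294.9, 367.4, 522.2 and 337.3 scaled reads. Like Pfkfb1, at 39.2 to 93.2 scaled reads, it was highest in the number 2 libraries.

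Phosphoglycerate mutase showed the widest isoform range. Pgam1, the ubiquitous form, read 255, 311, 211, 246, 282 and 253 FPKM, within a 1.65-fold range of scaled reads. Pgam2, the muscle form, read 146, 2.34, 201, 132, 10.1 and 44.3 FPKM. The Pgam2 share of the pair was therefore 36.4, 0.747, 48.9, 35.0, 3.47 and 14.9%. Both number 2 libraries had the lowest Pgam2, both number 1 libraries and control 3 had the highest, and the library labelled Islr knockout 3 lay between. Myog was likewise lowest in the number 2 libraries, at 43370, 417.2, 43261, 37228, 1998 and 5737 scaled reads; the part of differentiation in the Pgam2 difference was not tested.

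In enolase the ubiquitous form was the higher one in every library. Eno1 read 1656, 1722, 1194, 1270, 1533 and 961 FPKM. Eno3, the muscle form, read 989, 429, 459, 799, 375 and 320 FPKM. High Eno3 was found in the number 1 libraries alone, so control 3, with Myog as high as control 1, had less than the number 1 libraries. Eno2, the neuronal form, stood at 0.427 to 4.53 FPKM. The Eno3 share of enolase was 37.4, 19.9, 27.7, 38.6, 19.6 and 24.9%, close between the 2 libraries of each number.

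Lactate dehydrogenase was almost wholly Ldha, the form of glycolytic muscle, in the number 1 libraries, and Ldhb, the form of heart and oxidative tissue, made up a larger fraction in the number 3 libraries. Ldhb read 12.4, 15.7, 77.0, 8.06, 26.01 and 60.2 FPKM, while Ldha read 1307, 811, 923, 1053, 866 and 944 FPKM. The Ldha share was 99.1, 98.1, 92.3, 99.2, 97.1 and 94.0%.

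None of the 6 isoform shares differed between Islr knockout and control beyond the spread of the libraries. Knockout minus control was -0.612 percentage points for Eno3 (p = 0.9), -10.9 for Pgam2 (p = 0.7), 3.23 for Pfkm (p = 0.8), -0.670 for Slc2a4 (p = 1.0), 1.98 for Hk2 (p = 0.7) and 0.289 for Ldha (p = 0.9), each by an exact two-sided permutation test of 3 against 3 libraries. Adjusted by Benjamini-Hochberg over the 6 families, every p was 1.0, and 3 against 3 cannot give a p below 0.1. Without the library labelled Islr knockout 1, the differences were -6.06, -19.5, -2.91, -2.98, -0.661 and -0.942 points in the same order, so that Pfkm, Hk2 and Ldha changed sign. Those for Pgam2, Eno3 and Slc2a4 moved by over 1.5 times.

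**Figure D3:**
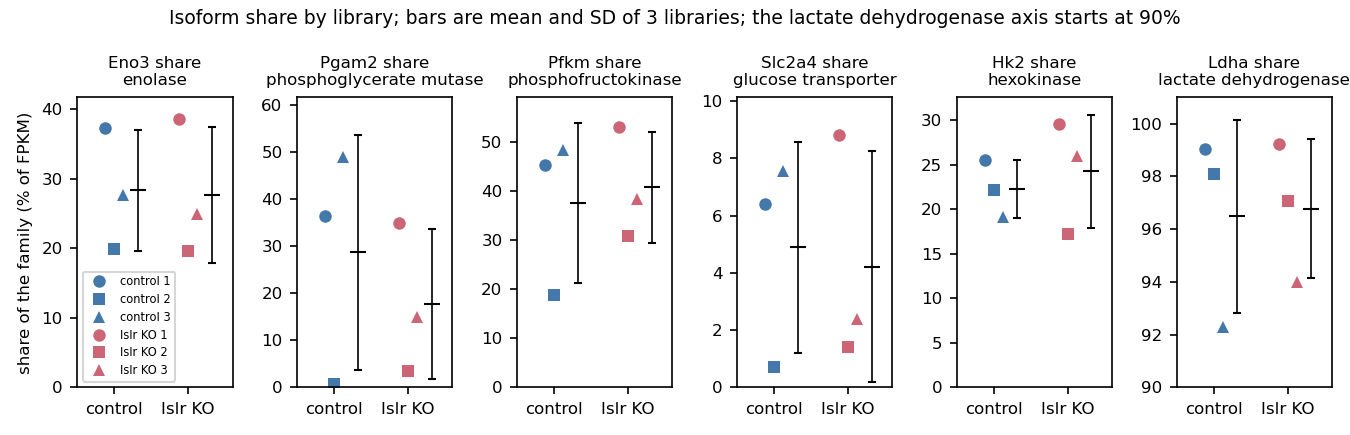
Share of the muscle or major isoform in the FPKM of its family, in percent, for each library, with control libraries in blue, Islr knockout libraries in red and the replicate number as point shape; black bars are the mean and SD of 3 libraries. The Pgam2 share runs from 0.747% to 48.9% within the control group alone, and the lactate dehydrogenase panel covers only the range from 90% upward.

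Members differed between replicate numbers. The same limma model with the group as a covariate asked, by an F test, whether the 3 numbers differed; what the numbers mark is not given in the labels. Of all features tested, 1291 (6.35%) were called, and 9 of 37 members were. By class these were 5 of 8 muscle-enriched isoforms, 3 of 13 ubiquitous or other-tissue isoforms, 0 of 7 enzymes with a single or shared gene, and 1 of 9 hypoxia genes. The count rests on the library labelled Islr knockout 1, without which 0 members were called (9 at an unadjusted limma p under 0.05) and 100 features in all; without control 1, 2 or 3 it was 4, 2 or 5 members, without the library labelled Islr knockout 3 it was 5, and without that labelled Islr knockout 2 it was 14. In each of these fits 1 number has a lone library, which is assumed to vary like the others. edgeR called 6 and a DESeq2 likelihood ratio test 14. Differentiation and cell cycle genes also differed between numbers: 4 of 26 myogenic differentiation genes and 7 of 12 cell cycle genes were called, and the cell cycle genes together took 0.148, 0.313, 0.128, 0.147, 0.226 and 0.126% of reads. Cell cycle genes were thus highest in the number 2 libraries, where the summed differentiation genes were lowest; the part of either in the members' differences was not tested.

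Slc16a3, encoding the lactate exporter MCT4 of glycolytic muscle, had the largest F. It read 1730, 141, 1075, 1982, 250 and 778 scaled reads, so both number 2 libraries were low and both number 1 libraries high, a 9.49-fold ratio between the means of those numbers (limma adjusted p = 0.0052). Its ubiquitous counterpart Slc16a1, encoding MCT1, read 2282, 4921, 1952, 2012, 2954 and 2289, with the number 2 libraries highest, and was not called (adjusted p = 0.1214).

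Both pyruvate dehydrogenase kinases among the members, which turn pyruvate away from mitochondria, were called. Pdk1, a hypoxia-inducible form, read 1184, 176, 825, 1528, 171 and 404, lowest in the number 2 libraries, with a 7.83-fold ratio between the extreme numbers (limma adjusted p = 0.0085). Pdk4, the form induced by fasting in muscle, read 984, 3220, 598, 1123, 1760 and 518, highest in the number 2 libraries (limma adjusted p = 0.0145). Thus the number 2 libraries had the least Pdk1 and the most Pdk4, while both genes were higher in the number 1 than in the number 3 libraries. Pdk2 and Pdk3, the other kinases of this family, were not called (limma adjusted p = 0.0940 and 0.1710).

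Ldhb read 302, 400, 1757, 197, 622 and 1322, with both number 3 libraries above all the others (limma adjusted p = 0.0104). Pfkm read 3051, 424, 2264, 3633, 660 and 1111, with both number 2 libraries below all the others (adjusted p = 0.0174). Eno3 read 28937, 13109, 12570, 23475, 10758 and 8428, with both number 1 libraries above all the others (adjusted p = 0.0231). The 3 remaining calls were Slc2a4 (adjusted p = 0.0367), Bnip3 (adjusted p = 0.0432) and Pfkl (adjusted p = 0.0456). These 3 depended on the setting: none was called in edgeR or with a mean of at least 10, where the other 6 were. Pfkl was also not called when the group covariate was left out. So the called members did not follow 1 order: Slc16a3, Pdk1, Pfkm, Slc2a4, Bnip3 and Pfkl were lowest in number 2, Pdk4 was highest there, Eno3 was highest in number 1, and Ldhb was highest in number 3.

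Pgam2 had a 22.5-fold ratio between the highest and lowest number and yet missed the threshold (limma adjusted p = 0.128). Its 2 number 3 libraries read 2956 and 626 and its 2 number 2 libraries 38.5 and 156, so same-numbered libraries differed more than in Slc16a3. Myog likewise was not called (adjusted p = 0.1565).

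**Figure D4:**
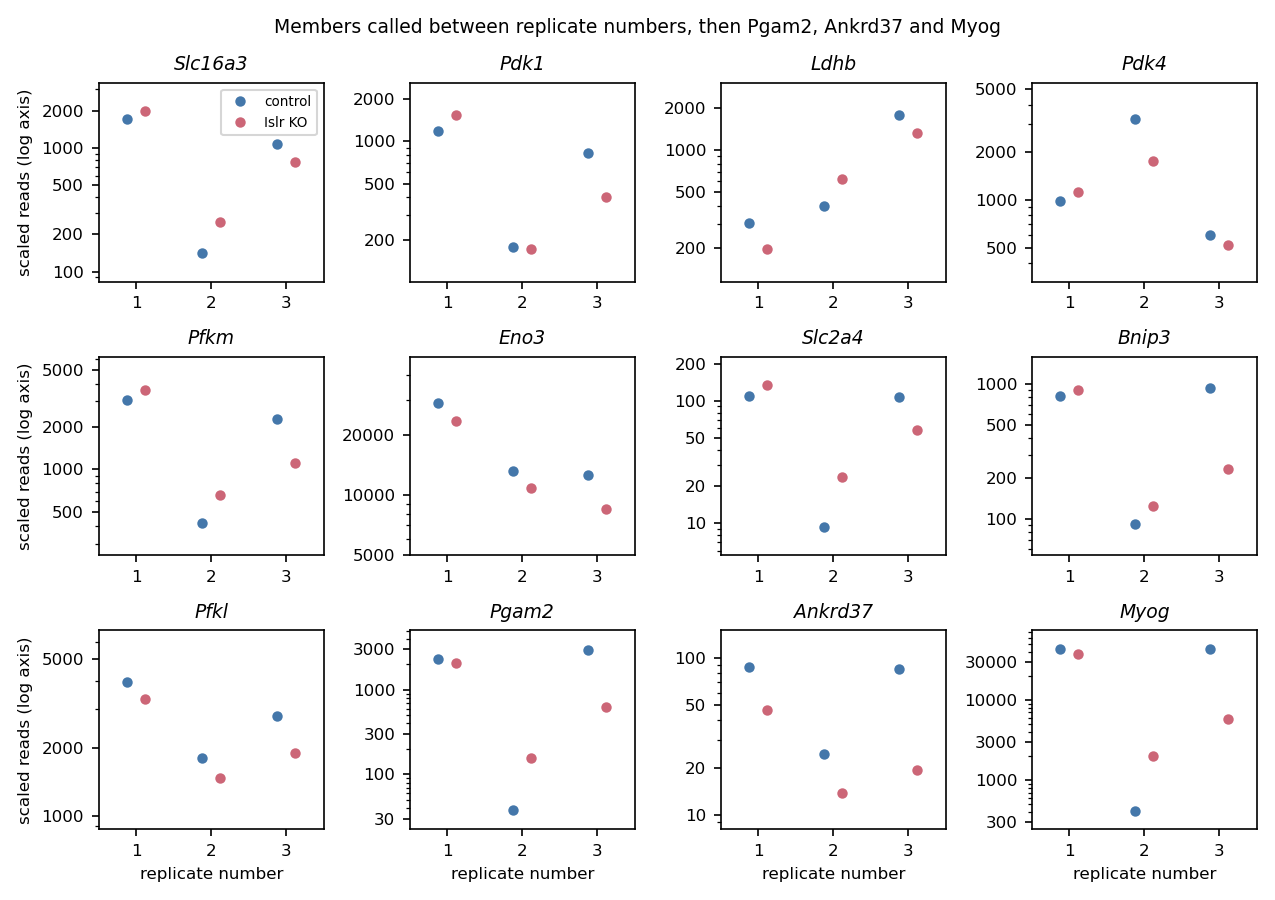
Scaled reads on log axes against replicate number, 1 point per library, for the 9 members called between numbers in order of adjusted p, and then for Pgam2, Ankrd37 and Myog; blue points are control and red points Islr knockout libraries. Slc16a3, Pdk1, Pfkm, Slc2a4 and Bnip3 are lowest in the number 2 libraries, whereas Pdk4 is highest there and Ldhb is highest in the number 3 libraries.

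Among the regulators of the hypoxia response, Hif1a read 19.1, 28.7, 26.6, 23.1, 22.9 and 34.1 FPKM. Egln1, encoding the main oxygen sensor PHD2, read 21.8, 19.3, 22.9, 23.5, 21.6 and 22.6 FPKM, the tightest of the members. Egln3, encoding PHD3, ranged from 26.3 to 41.8 FPKM, with control 2 at the top.

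Epas1, encoding HIF-2alpha, was low, at 43.3, 106, 90.3, 62.8, 186 and 190 scaled reads. The knockout library was the higher one in each number, but the library labelled Islr knockout 1 lay below controls 2 and 3, and the log2 fold change was 0.80 ± 0.56 (SE, n = 3 per group, limma unadjusted p = 0.1898, adjusted p = 1.0). With the replicate number as a block the unadjusted p was 0.0299 and the adjusted p 0.9204. The summed FPKM of 8 endothelial genes, a cell type known for Epas1, was 4.53, 10.2, 8.05, 4.51, 26.2 and 23.2, and that of 8 macrophage and immune genes was 7.16, 5.56, 12.3, 3.45, 19.1 and 39.0, with Ptprc at 0 in 4 of 6 libraries. For Schwann cell genes it was at most 8.98 in the controls and the library labelled Islr knockout 1 and up to 28.4 in the others, for fibroblast genes 80.1, 23.2, 178, 63.5, 102 and 205, and for the 1 tested adipocyte gene it was at most 1.30. Gsn alone made up 73.8, 18.0, 137, 57.6, 80.4 and 105 FPKM of the fibroblast sum. A fitted log2 fold change above 0 was found for 8 of 8 endothelial and 7 of 8 macrophage and immune genes. It was also found for 6 of 6 Schwann cell and 9 of 10 fibroblast genes, and for 10789 of all 20344 features tested. Of the genes in these lists, 0 were called between the groups. In number 1 the median log2 difference, knockout minus control, was 0.06, -0.56, -0.55 and -0.16 for these lists in that order. The endothelial, macrophage and Schwann sums were highest in the libraries labelled Islr knockout 2 and 3, as Epas1 was; their part in the Epas1 difference was not tested.

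Ankrd37, a small ankyrin-repeat gene known as a direct HIF target, had the lowest p of the 37 members. It read 87.8, 24.5, 85.2, 46.8, 13.8 and 19.3 scaled reads, lower in the knockout library of each number, while control 2 lay below the library labelled Islr knockout 1. The log2 fold change was -1.25 ± 0.69 (SE, n = 3 per group, limma unadjusted p = 0.1029, adjusted p = 1.0). With the replicate block the SE was 0.44 and the unadjusted p 0.0192 (adjusted p = 0.9204), and in that fit 2 members, Ankrd37 and Epas1, against 4.59% of all features, had an unadjusted p under 0.05. Without the library labelled Islr knockout 1 the log2 fold change of Ankrd37 was -1.74 (limma unadjusted p = 0.0388, adjusted p = 1.0). It was -1.85 without control 2 (limma unadjusted p = 0.0212), -0.95 without control 1, -0.97 without control 3, -0.90 without the library labelled Islr knockout 2 and -1.12 without that labelled Islr knockout 3, with limma unadjusted p from 0.1965 to 0.2843 for these 4. The log2 fold change of Epas1 without the library labelled Islr knockout 1 was 1.32 (limma unadjusted p = 0.0303, adjusted p = 1.0). Without control 1 it was 0.41, and 0.54 or 0.53 without the library labelled Islr knockout 2 or 3. Ufsp2, which overlaps Ankrd37 on the opposite strand, read 688, 568, 764, 703, 667 and 600. Lrp2bp, which also overlaps it on the opposite strand, read 16.66, 1.165, 20.45, 15.97, 0.9226 and 15.9, lowest in the number 2 libraries. The part of either overlapping gene in the Ankrd37 values was not tested.

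Car9, encoding the cell-surface carbonic anhydrase IX, read 22.2, 12.8, 18.8, 9.13, 7.38 and 12.6 scaled reads. In scaled reads of Car9, every control library lay above every knockout library by a narrow margin (12.8 in control 2 and 12.6 in the library labelled Islr knockout 3). In FPKM the groups overlapped, with 0.324 in control 2 and 0.368 in the library labelled Islr knockout 3. The log2 fold change of Car9 was -0.82 ± 0.58 (SE, n = 3 per group, limma unadjusted p = 0.1926, adjusted p = 1.0). Bnip3, a mitophagy receptor induced by HIF, read 822, 90.9, 942, 904, 124 and 235, with both number 2 libraries lowest. Ddit4, a stress-induced inhibitor of mTORC1, read 951, 502, 1367, 794, 1126 and 1537, with the number 3 libraries highest. Ndrg1 ranged from 93.6 to 206. By the mean of each replicate number, number 2 was lowest in Ankrd37, Bnip3, Car9 and Ddit4. In Ddit4 this rested on control 2, since the lowest knockout library was the one labelled Islr knockout 1. Egln3 was highest in number 2, and Ndrg1 was lowest in number 1. The members known as HIF targets thus did not all share 1 order over the libraries.

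The rest of the pathway was read from lists of other genes, none of which had a called member between the groups. Of 23 further tested genes of glycolysis and pyruvate metabolism, 11 were higher and 12 lower in the knockout libraries, with a median of -0.10, and 0 were called between replicate numbers. Hkdc1, a low-level hexokinase relative, was the only one at an unadjusted limma p under 0.05 (0.0140) and held at most 5.86 scaled reads. Among the glycogen genes, Pygm, the muscle glycogen phosphorylase, was called between numbers, at 2787, 83.9, 3067, 3521, 416 and 2005 scaled reads (limma adjusted p = 0.0457). Pygm, like Slc16a3 and Pfkm, was lowest in both number 2 libraries.

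Of 28 other hypoxia genes, 21 had a fitted log2 fold change above 0 and 7 below, with a median of 0.18. Over all features tested, 10789 were above and 9555 below, with a median of 0.03. Within numbers 1, 2 and 3 the median difference of the 28 was 0.05, 0.24 and 0.02. Angptl4, a lipoprotein lipase inhibitor induced by hypoxia and by lipids, read 536, 339, 299, 489, 1223 and 2340, with the libraries labelled Islr knockout 2 and 3 above the rest (log2 fold change 1.56, limma unadjusted p = 0.0185, adjusted p = 1.0). Hmox1, encoding the haem-degrading heme oxygenase 1, read 3363, 2202, 4570, 1739, 6137 and 15221, highest in the same 2 libraries. The summed endothelial, macrophage and Schwann cell genes given beside Epas1 were also highest in these 2 libraries, and their part in the values of this list was not tested. Between numbers 5 of the 28 were called, namely P4ha1, Kdm3a, Ak4, Stc2 and Narf. All 5 were highest in number 1, as Slc16a3 and Pdk1 were.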

How the data were processed

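RNA sequencing values of 3 control and 3 Islr knockout libraries were used as deposited. The main values are signal values: per the file headers 1 column per library, and by their steps gene read counts divided by the authors' size factor; after division by the step of their library 100.0% were whole to within 0.01, and all 480 genes shared with the authors' deposited count table had identical counts. FPKM were deposited by the authors in the same table, with the log2 fold change and p-value of the authors' own comparison, which were not used. The submitters' processing notes name edgeR 3.18.1, DESeq2 1.16.1, HTSeq, HISAT2 2.0.5 and Trimmomatic; the role of each, the annotation and strand handling: not given in the sources used here. A further 6 per-sample columns (FPKM beside the counts) stayed unused, and 36 damaged lines were dropped. The column name taken for control 1 has 2 digits in exchanged order relative to its label. Coordinates follow GRCm38, where 26940 of 27093 Ensembl genes matched GENCODE.

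limma 3.58.1 (trend and robust) was run on log2(scaled reads + 1) as a two-sided test over the 20344 features whose mean reached 1, with Benjamini-Hochberg adjustment over all of them; this scale understates changes of low genes. An F test with group as covariate compared replicate numbers. Isoform shares used FPKM, whose length was chosen after the files were seen. edgeR 4.0.16 and DESeq2 1.42.0 were run on the recovered reads, and the code was tested on simulated data. After subtracting group means, control and knockout libraries of the same number correlated at 0.689, 0.633 and 0.625 (14280 genes). Other pairs correlated between -0.513 and -0.245. Differences within each number are therefore given, and the numbers served as a block in alternative fits. The main limma fit between groups and the main isoform share test did not use the numbers, and their p-values ignore this pairing. The labels do not say what the numbers mark.

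The members, their classes and 11 lists of other genes were chosen with earlier results of these data known. Fold changes are given for the 6 members of smallest limma p between groups, values for every isoform family and for the 6 called members of largest F between numbers; other genes come from the lists, and of these Hkdc1, Pygm, Pdk2, Pdk3, Angptl4 and Hmox1 were singled out after their values were seen. A further listed gene is not reported here.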

Additional observations from a re-analysis of the deposited data

How the results depend on the processing

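Between the groups, no alternative of limma, edgeR or DESeq2 called a member, and the 6 named fold changes kept their sign in every alternative; with the replicate block limma called 0 features (933 at an unadjusted p under 0.05), edgeR 0 and DESeq2 7, with no member among them. The replicate block changed no other call. Fits that left out both libraries of 1 replicate number, chosen after seeing the data, also called 0. Between replicate numbers, the count of features was 795 with a mean of at least 10, 514 in edgeR and 2658 in the DESeq2 likelihood ratio test, which called 14 members, and leaving out 1 library gave 100 to 2271 features and 0 to 14 members; the cause was not tested. Leaving out 1 library, knockout minus control in the isoform share ran from -6.06 to 3.91 percentage points for Eno3, from -6.15 to 8.68 for Pfkm, from -2.98 to 0.727 for Slc2a4, from -0.661 to 5.48 for Hk2 and from -1.80 to 1.67 for Ldha, each changing sign, and from -24.8 to -0.788 for Pgam2. With exon-union lengths, also chosen after seeing the data, the 6 share differences kept their sign. Exchanging labels within replicate numbers gave exact permutation p of 0.75 or 1.0, where 0.25 is the smallest possible. Read totals limit low members: Aldoc and Car9 had at most 22.2 scaled reads in any library.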
